A study of Mus musculus with 2 samples.

Results

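The hormone sensing luminal genes are 9 genes that mark, or act in, the mammary luminal cells that carry hormone receptors: Esr1, Pgr, Prlr, Foxa1, Gata3, Tfap2c, Greb1, Cited1 and Ly6d. They were picked from a list of names, with earlier results of these data known, and all 9 were found among the 49492 genes of a table of raw read counts. The table held 2 RNA-seq libraries, 1 labelled Ctrl basal and 1 labelled CL basal. Gm13256, an antisense gene whose exons overlap those of Gata3, is given beside Gata3 throughout.

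Both libraries came from basal cells of the mammary gland of adult female wild-type mice aged 8 to 10 weeks, labelled Day 7. The cells were sorted as lin- CD24+ CD29hi, where lin- means that cells with CD45, CD31 or TER119, the markers of leukocytes, endothelium and erythroid cells, were left out. CL stands for clodronate liposomes, vesicles that kill the phagocytes that take them up. They were injected into the peritoneum 3 times, 2 days apart, before the glands were taken. For the control, 1 label gives no treatment and the design text gives saline. The study names C57/B6 mice for other CL injections, but the strain and the number of animals behind these libraries are not given in the sources used here. The comparison asks how the RNA of basal cells differed after macrophages were depleted.

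The CL basal library held 38962512 counts and the Ctrl basal library 37846008. With 1 library per group there was no spread between replicates, so no test of the treatment was possible and no p-value is given. Each log2 fold change, CL basal over Ctrl basal after TMM scaling (a scaling that takes most genes as unchanged), is given with its exact Clopper-Pearson 95% interval. The interval covers counting error only and compares these 2 libraries, not the 2 conditions. Of the counts from 1 to 20, 68.7% in CL basal and 67.9% in Ctrl basal were even numbers. Read pairs that add 2 counts would make such an excess and leave the intervals too narrow, but how reads were counted is not given. Each interval was therefore also computed from halved counts.

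Estrogen and progesterone act on the mammary epithelium through nuclear receptors, and prolactin through a cytokine receptor that signals by Jak2 and Stat5. In the adult gland the receptors are found mainly in a subset of luminal cells, the hormone sensing cells, which pass the signal to their neighbours, basal cells included, through secreted factors such as amphiregulin, Wnt4 and RANKL. Foxa1 and Gata3 are transcription factors that work with the estrogen receptor in these cells, and AP-2 gamma, encoded by Tfap2c, is found in luminal and basal cells alike. A sorted basal fraction is therefore not the usual site of most of these transcripts.

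The stretch of genome before each start site is shown for 4 of the genes. Of these, Gata3 was higher in CL basal, and Foxa1, Greb1 and Pgr were lower. No link between sequence and change was tested. The sequences are RefSeq's on GRCm38.p6, written 5′ to 3′ on the strand of the gene. Those of Gata3, Greb1 and Pgr end at the base before a RefSeq start, and that of Foxa1 is printed for 240 bases and stops 10 bases short of its RefSeq start, where the exon of the deposited table begins. For Gata3 this start lies inside the gene's span in the table, downstream of the span's own 5′ end. RefSeq windows were listed for 7 of the 9 genes, 13 windows in all, and Ly6d and Tfap2c had none listed. For Gata3 (chr2:9878601-9878850, minus strand) the capitals mark matches to GCCNNNGGC, the letters of an AP-2 site. For Foxa1 (chr12:57546122-57546361, minus strand) they mark the forkhead letters TGTTTAC read on the other strand. For Greb1 (chr12:16800887-16801136, minus strand) they mark GGTCA, one arm of an estrogen response element, also on the other strand. For Pgr (chr9:8899583-8899832, plus strand) none of these letters was found and nothing is in capitals.
Gata3: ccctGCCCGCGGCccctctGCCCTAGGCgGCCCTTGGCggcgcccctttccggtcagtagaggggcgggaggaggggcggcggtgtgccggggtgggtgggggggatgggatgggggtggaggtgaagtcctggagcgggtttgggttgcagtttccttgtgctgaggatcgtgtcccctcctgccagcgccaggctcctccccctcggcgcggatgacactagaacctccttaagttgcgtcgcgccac
Foxa1: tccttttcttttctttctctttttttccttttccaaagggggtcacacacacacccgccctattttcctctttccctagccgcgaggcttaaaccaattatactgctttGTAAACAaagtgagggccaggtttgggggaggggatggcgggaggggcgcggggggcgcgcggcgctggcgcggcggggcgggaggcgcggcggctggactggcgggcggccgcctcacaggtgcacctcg
Greb1: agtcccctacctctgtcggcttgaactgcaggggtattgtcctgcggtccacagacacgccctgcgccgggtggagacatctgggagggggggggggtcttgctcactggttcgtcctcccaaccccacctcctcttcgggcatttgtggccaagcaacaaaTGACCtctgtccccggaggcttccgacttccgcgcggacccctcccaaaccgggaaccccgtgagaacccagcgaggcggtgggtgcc
Pgr: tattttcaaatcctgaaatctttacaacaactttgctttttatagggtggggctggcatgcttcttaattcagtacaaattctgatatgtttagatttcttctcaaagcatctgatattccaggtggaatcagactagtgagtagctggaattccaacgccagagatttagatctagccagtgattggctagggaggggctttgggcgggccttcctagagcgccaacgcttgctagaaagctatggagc

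Each motif was searched on both strands in the 250 bases before the start, and its share among 32851 windows of 27025 genes is given beside the members. AP-2 letters were found in 3 of the 13 windows of the hormone sensing genes and in 13.7% of all windows. Gata3 held 3 such matches, which began at -246, -231 and -221 from the start, while Esr1 held 1 at -170 and Cited1 1 at -93. Forkhead letters were found in 2 windows, those of Foxa1 (-141) and Prlr (-215), against 3.17% of all windows. The arm GGTCA was found in 6 windows of 4 genes, Gata3, Foxa1, Greb1 and Cited1, and in 35.2% of all windows. No window of the 7 genes held a full estrogen response element, that is both arms facing each other with 3 bases between them, which 0.0639% of all windows held. The GATA letters AGATAA were also in none of them, against 9.99% of all windows. The progesterone and glucocorticoid receptor letters TGTTCT was in 1 window (Prlr, at -12) against 16.1%, and the Stat letters TTCNNNGAA were in 2, Esr1 (-188) and Prlr (-110), against 7.02%. A match says only that these letters are present. GC content was 70.0% for Gata3, 62.5% for Foxa1, 65.2% for Greb1 and 43.6% for Pgr, with 19, 21, 16 and 4 CpG dinucleotides.

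The level of each gene was compared per length, as TMM-scaled counts per kilobase of exon and per 1000000 reads. All 9 genes were detected in both libraries, with levels that differed widely between genes. Tfap2c was the highest in both, at 41.4 (95% interval 40.4 to 42.5) in CL basal and 30.7 (29.8 to 31.6) in Ctrl basal. Its level stood at the 92.4 and 90.4 percentile of the 17356 genes whose counts summed to 20 or more. Gata3 came next, at 9.43 in CL basal and 6.24 in Ctrl basal, percentiles 75.2 and 68.0. The receptors were low: Prlr, the highest of them, had a level of 0.758 in CL basal and 1.38 in Ctrl basal, percentiles 28.0 and 37.6.

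Below Gata3, the order of level in CL basal was Foxa1, Ly6d, Prlr, Pgr, Greb1, Esr1 and Cited1. The intervals of Foxa1 (2.21) and Ly6d (2.03) overlapped, as did those of each pair of neighbours from Prlr to Cited1. In Ctrl basal the order was Ly6d, Foxa1, Prlr, Pgr, Greb1, Esr1 and Cited1, and the overlapping neighbours were Ly6d (4.77) with Foxa1 (4.08), Prlr with Pgr, Greb1 with Esr1, and Esr1 with Cited1. The order of the genes was thus the same in both libraries but for Foxa1 and Ly6d, which could not be told apart in either.

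**Figure D1:**
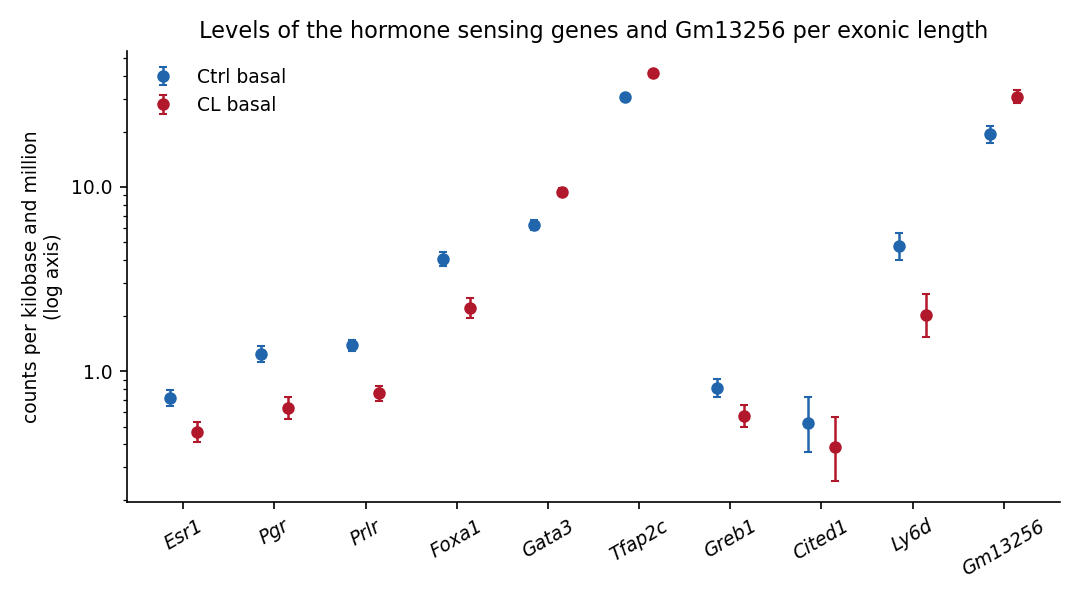
Level of each hormone sensing gene and of Gm13256 in the Ctrl basal library (blue) and the CL basal library (red), in counts per kilobase of exon and 1000000 reads on a log axis, with exact Poisson 95% intervals for counting error. Tfap2c and Gata3 were the highest of the 9 genes in both libraries, and these 2 and Gm13256 had the red point above the blue one.

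Of the 9 genes, 7 were lower in CL basal and 2, Gata3 and Tfap2c, were higher, beside 8986 lower and 8370 higher among all 17356 genes. The interval lay below 0 for 6 of the genes and above 0 for 2, and held 0 for Cited1. Over all genes with at least 20 counts, the interval lay below 0 for 25.4% and above 0 for 25.2%, since counting error alone is small at this depth. At a fold of 2, 1 gene was lower (Ly6d) and 0 were higher, beside 4.79% of the genes with at least 20 counts that were lower by that much and 2.07% that were higher. At a fold of 1.5, 5 were lower (Esr1, Pgr, Prlr, Foxa1 and Ly6d) and 1 was higher (Gata3), against 11.7% and 6.33% of all genes. All but Cited1 had at least 100 counts, and among all genes with that many, 6.94% were lower by 1.5-fold and 2.93% higher. The median log2 fold change was -0.60 over the 9 genes and -0.01 over all 17356 genes. It was -0.86 over the 7 genes other than Gata3 and Tfap2c. Those 7 are the genes that were lower, so this lower median follows from the choice.

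**Figure D2:**
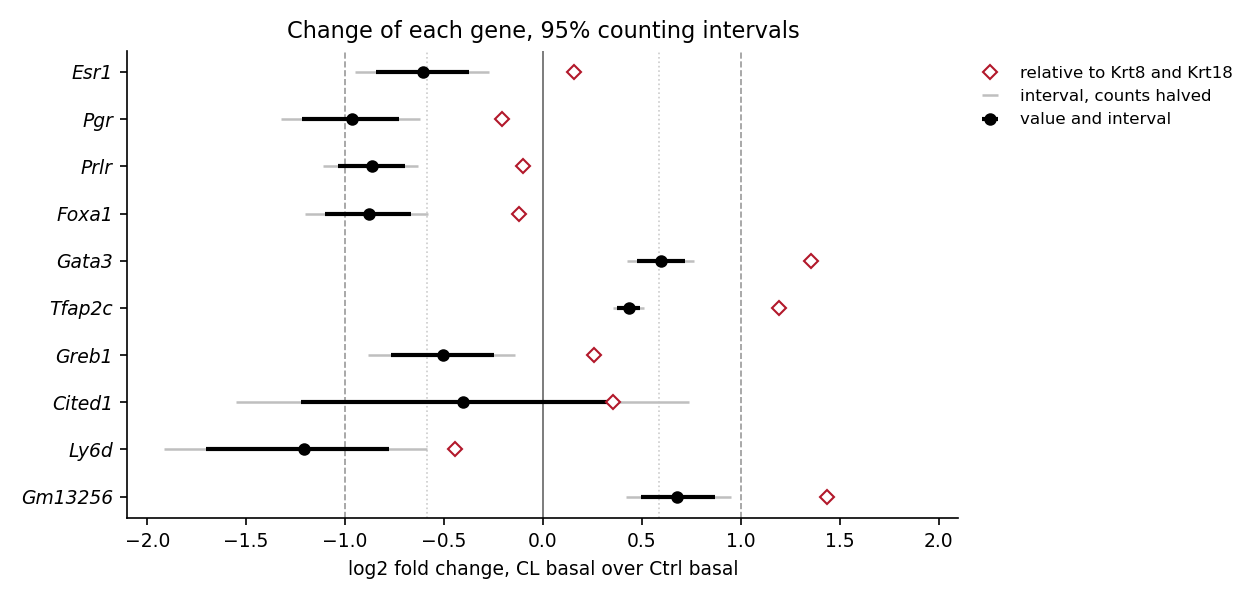
Log2 fold change, CL basal over Ctrl basal, of each hormone sensing gene and of Gm13256 (black points) with its 95% counting interval (black bars) and the interval from halved counts (grey bars). Open diamonds give the same change relative to that of the summed Krt8 and Krt18 counts; dashed lines mark 2-fold and dotted lines 1.5-fold. The black bars of 6 genes lay left of 0, and those of Gata3, Tfap2c and Gm13256 right of it.

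The 3 receptors were all lower in CL basal. Esr1, which encodes estrogen receptor alpha (chr10:4611593-5005614, plus strand, 19 exon blocks), had 374 counts in Ctrl basal and 246 in CL basal. Its log2 fold change was -0.60 (-0.85 to -0.37). Pgr, which encodes the progesterone receptor and is itself a target of estrogen (chr9:8899833-8968611, plus strand, 8 exon blocks), had 407 counts in Ctrl basal and 208 in CL basal. The change was -0.97 (-1.22 to -0.73), close to the 2-fold mark, and it reached -1.0 when the libraries were scaled by total counts.

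Prlr, which encodes the prolactin receptor (chr15:10177238-10349180, plus strand, 16 exon blocks), had 812 counts in Ctrl basal and 447 in CL basal, a log2 fold change of -0.86 (-1.03 to -0.70). Its exons share 203 bases, 1.32% of the Prlr exonic length, with Gm21973, which had 31 counts in Ctrl basal and 16 in CL basal. Summed, the receptors had 1593 counts in Ctrl basal and 901 in CL basal, a log2 fold change of -0.82 (-0.95 to -0.71). The intervals of Esr1, Pgr and Prlr overlapped one another, and the order of the 3 changes was not tested.

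The 3 transcription factors did not move together. Foxa1, a forkhead factor that opens chromatin for the estrogen receptor (chr12:57540631-57546121, minus strand, 2 exon blocks), had 499 counts in Ctrl basal and 271 in CL basal, a log2 fold change of -0.88 (-1.10 to -0.67). Gata3, a zinc finger factor needed to form and keep luminal cells (chr2:9857078-9890034, minus strand, 10 exon blocks), had 952 counts in Ctrl basal and 1443 in CL basal, a change of 0.60 (0.48 to 0.72). Tfap2c, which encodes AP-2 gamma (chr2:172549593-172558622, plus strand, 9 exon blocks), had 4330 counts in Ctrl basal and 5860 in CL basal, a change of 0.43 (0.38 to 0.49). The interval of Foxa1 overlapped neither of the others, in these libraries and for counting error only. Because Tfap2c and Gata3 held most of the reads, the 9 genes summed to more counts in CL basal (8770) than in Ctrl basal (7844), although 7 of them were lower. Without those 2 genes the sums were 1467 and 2562, a log2 fold change of -0.81 (-0.90 to -0.72). This change had to lie below 0, since only genes that were lower remained. For the sum of all 9 genes it was 0.16 (0.11 to 0.20).

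Gata3 stood close to the 1.5-fold mark (0.585 on the log2 scale), and the change was 0.557 with total counts and 0.580 with the trend on level removed, both short of it. Gm13256 (chr2:9877256-9878869, plus strand, 2 exon blocks) runs against Gata3 and shares 155 exonic bases with it in 2 stretches, chr2:9877352-9877444 and chr2:9878539-9878600. These are 3.90% of the Gata3 exonic length and 29.8% of that of Gm13256. The printed sequence before the RefSeq start of Gata3, with its AP-2 letters, lies within an exon of Gm13256. Gm13256 had 385 counts in Ctrl basal and 619 in CL basal, a log2 fold change of 0.68 (0.50 to 0.87). Per length, its level was 31.0 in CL basal and 19.3 in Ctrl basal, above that of Gata3 in both. Whether strand was used in counting is not given in the sources used here, so reads from both strands cannot be told apart in the shared stretches. With the counts of both genes summed, 1337 in Ctrl basal and 2062 in CL basal, the change was 0.62. With all counts of Gm13256 taken from Gata3 in each library, 567 counts remained in Ctrl basal and 824 in CL basal, and the change was 0.53 (0.38 to 0.69), short of 1.5-fold. Gata3 exons also share 77 bases with 9230102O04Rik, which had 59 counts in Ctrl basal and 53 in CL basal.

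**Figure D3:**
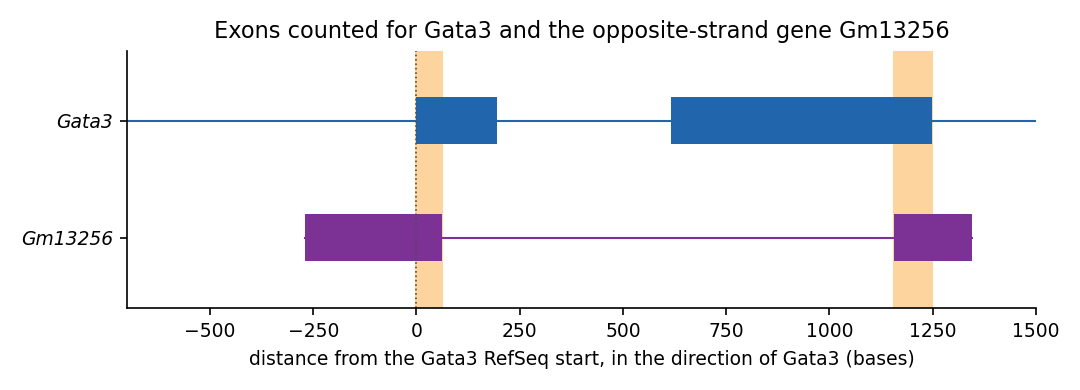
Exons counted for Gata3 (blue) and Gm13256 (purple) around the RefSeq start of Gata3, in bases from that start in the direction of Gata3. Boxes are exons, lines are introns or the gene's further span, and the orange bands mark the 155 shared exonic bases; Gm13256 reaches past the start into the 250 bases whose sequence is printed.

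The other 3 genes had the fewest counts when both libraries were summed. Greb1, an estrogen-induced gene whose product binds the estrogen receptor (chr12:16670615-16800886, minus strand, 35 exon blocks), had 299 counts in Ctrl basal and 211 in CL basal, a log2 fold change of -0.50 (-0.77 to -0.25). Cited1, a coactivator of the estrogen receptor (chrX:102247381-102252181, minus strand, 6 exon blocks), had 35 counts in Ctrl basal and 26 in CL basal, and a difference was not detectable at this depth (-0.41, interval -1.22 to 0.34). Ly6d, a surface protein of the Ly6 family that is also made by B lineage cells and squamous epithelium (chr15:74762056-74763620, minus strand, 3 exon blocks), had 136 counts in Ctrl basal and 58 in CL basal. At -1.21 (-1.70 to -0.78) it was the gene past the 2-fold mark, although this interval, and the wider one from halved counts (-1.91 to -0.59), included changes smaller than that.

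**Figure D4:**
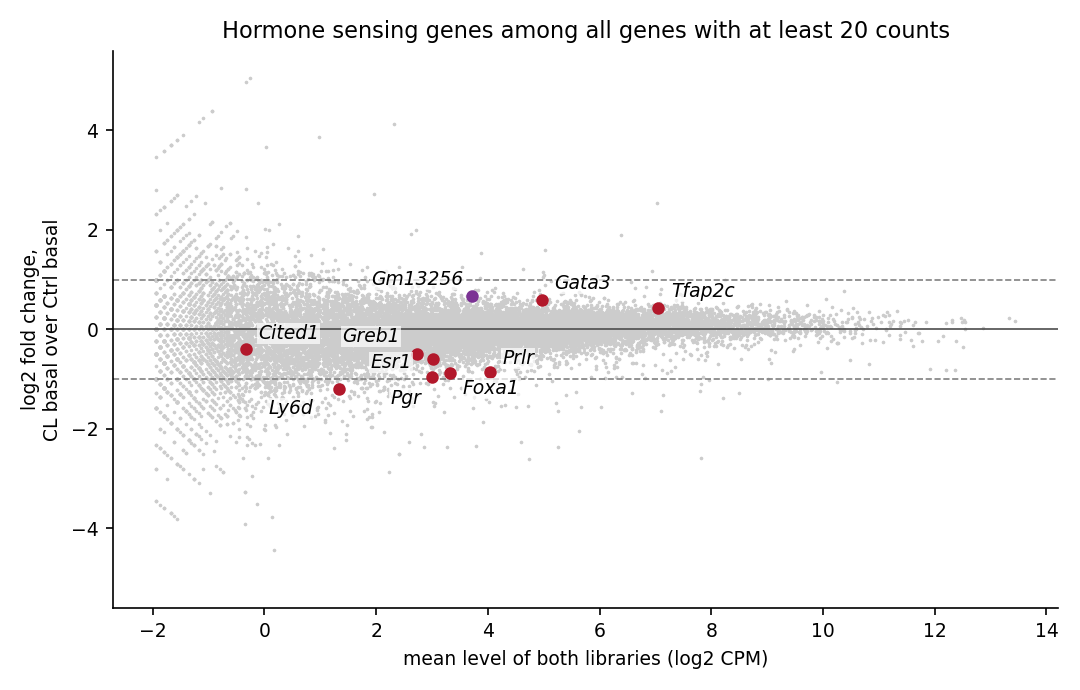
Log2 fold change, CL basal over Ctrl basal, against the mean level of both libraries as log2 of counts per 1000000 reads, for the 17356 genes with at least 20 counts (grey), the 9 hormone sensing genes (red) and Gm13256 (purple). Dashed lines mark 2-fold; of the red points Ly6d alone lies beyond a line, and Gata3 and Tfap2c lie above 0.

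Keratins of the luminal layer differed between the libraries in the same direction as the receptors. Krt8 and Krt18 together had 136178 counts in Ctrl basal and 80642 in CL basal, a log2 fold change of -0.76, while Krt5 and Krt14, the keratins of the basal layer, had 257807 and 273140, a change of 0.08. Singly, Krt5 was lower (47049 and 40295 counts, -0.23) and Krt14 higher (0.14), so the sum follows the more abundant Krt14. Relative to Krt8 and Krt18, the change was 0.16 for Esr1, -0.21 for Pgr, -0.10 for Prlr, -0.12 for Foxa1, 0.26 for Greb1, 0.35 for Cited1 and -0.45 for Ly6d. This scale adds the same 0.76 to every gene, so the opposite sign of Esr1, Greb1 and Cited1 follows from its arithmetic. On it, 0 of these 7 genes were lower by 1.5-fold or more, beside 2.3% of all genes. Gata3 and Tfap2c stood at 1.35 and 1.19, past 2-fold, as did 22% of all genes. Per 1000 counts of Krt8 and Krt18, Esr1 had 2.75 counts in Ctrl basal and 3.05 in CL basal, Prlr 5.96 and 5.54, and Gata3 6.99 and 17.9. In a bulk library, fewer cells of a type and less RNA per cell cannot be told apart, and the part of luminal cells in these differences was not tested.

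The 14 general luminal markers, which include both keratins, were all lower in CL basal, with a median of -0.84, and 6 of them were lower by 2-fold or more, led by Krt7 (8003 counts in Ctrl basal, 2563 in CL basal), Cldn7 and Prom1. Their summed counts were 227912 in Ctrl basal and 147667 in CL basal. At 2-fold, 4.79% of all genes with at least 20 counts were lower. Among 14 markers of hormone sensing cells that are not members, 13 had at least 20 counts. Of these, 12 were lower and 1 was higher, with a median of -0.50, and 3 were lower by 2-fold or more, Prom1 (-1.33), Areg (-1.31) and Krt19 (-1.11). Krt8, Krt18, Krt19 and Prom1 are in both lists, so the lists are not separate evidence. Without the keratins the median was -0.40 over 10 genes, and 3 rather than 6 were lower by 1.5-fold or more, beside 11.7% of all genes. Xbp1, a stress-response transcription factor of hormone sensing cells, was at -0.01.

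Other genes of the hormone pathway, a list that shares Areg, Xbp1, Tbx3, Myb and Spdef with the hormone sensing markers, went both ways. Of 40 listed genes, 37 had at least 20 counts, of which 19 were lower and 18 higher, with a median log2 fold change of -0.00. Past 2-fold, 3 were lower and 1 was higher, beside 4.79% and 2.07% of all genes. Receptors of other hormones and cofactors of nuclear receptors had a median of 0.14, with 3 of 10 below 0. Ncor1, a corepressor, had 10782 counts in Ctrl basal and 11634 in CL basal (0.11), and Nrip1, a cofactor that binds the estrogen receptor, was at 0.40. Genes of the prolactin signal had a median of -0.16, with 5 of 6 below 0.

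Genes listed as paracrine targets, that is of signalling between cells, held 3 of the 4 genes past 2-fold. The median of all 7 was -0.16, with 4 below 0 and 3 above. Areg, which encodes amphiregulin, a ligand of the EGF receptor, had 7665 counts in Ctrl basal and 3094 in CL basal (-1.31). Wnt4, a Wnt ligand induced by progesterone, had 269 and 105 (-1.34, interval -1.70 to -1.03). The interval from halved counts, -1.86 to -0.90, included changes smaller than 2-fold. Calca, the calcitonin gene, had 4 counts in Ctrl basal and 41 in CL basal (2.84, interval 1.89 to 5.30), and with so few counts its size is poorly fixed. Tnfsf11, which encodes RANKL, had 74 counts in Ctrl basal and 66 in CL basal, a difference not detectable at this depth (-0.16, interval -0.67 to 0.33). The other gene past 2-fold was Msx2, a homeobox factor, with 170 and 84 counts (-1.0). Among the further targets and partners, Igfbp5, an IGF binding protein, was at 0.00 with 59176 counts in Ctrl basal, and Cebpb, a transcription factor of mammary development, at 0.28. Of the 3 genes under the filter, Esr2, the other estrogen receptor, had 8 counts in Ctrl basal and 0 in CL basal, where a count of 0 allows up to 3 counts (0.078 per 1000000 reads), Tff3 had 0 in both, and Spdef had 6 and 13.

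**Figure D5:**
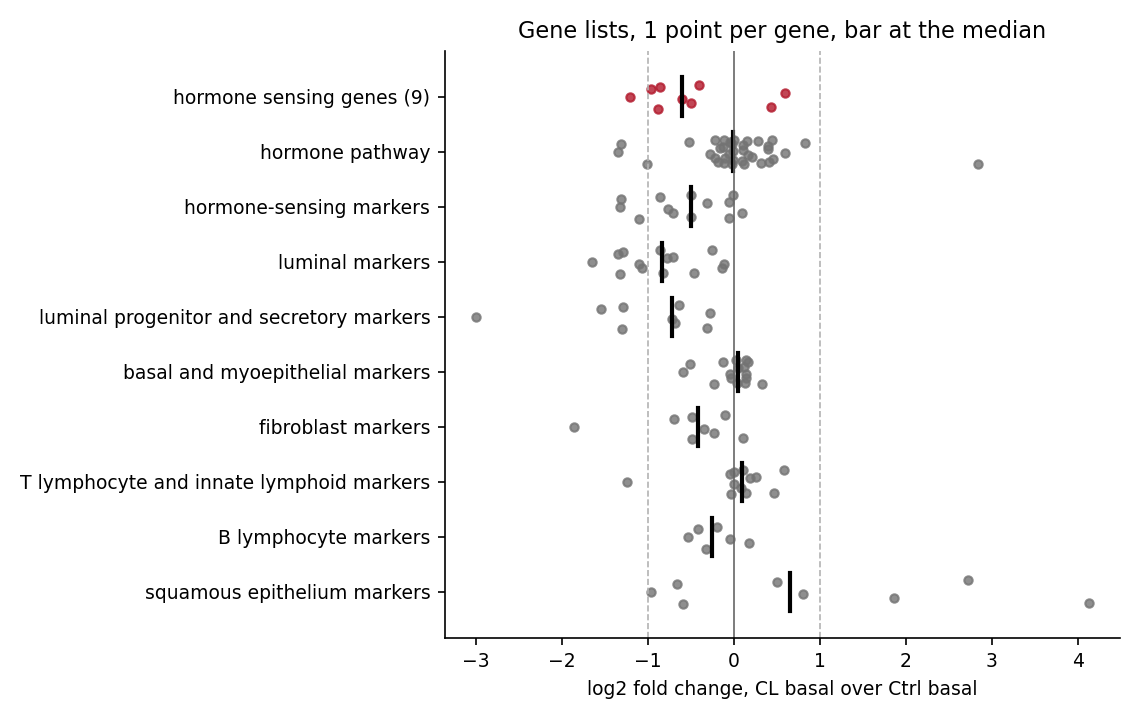
Log2 fold change, CL basal over Ctrl basal, of each gene with at least 20 counts in the hormone sensing genes (red) and in 9 other lists (grey), with a black bar at each median and dashed lines at 2-fold. The hormone pathway was centred near 0, the luminal and hormone-sensing lists had medians left of 0 with 1 hormone-sensing marker right of it, and the basal markers had a median near 0, with single genes down to -0.59; the adipocyte, macrophage and endothelial lists are not drawn.

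Several of the hormone sensing genes are also expressed outside the luminal layer, so markers of other cells are given beside them, and their part in the results was not tested. At 2-fold, 4.79% of all genes were lower and 2.07% higher, and at 1.5-fold 11.7% were lower. The 16 basal markers had a median of 0.04 with 0 past 2-fold, and summed counts of 848065 in Ctrl basal and 881854 in CL basal, led by Myh11 (0.02) and Krt14 (0.14). Of these markers 1 was lower by 1.5-fold, Procr, a marker of multipotent basal cells (-0.59, interval -0.64 to -0.54), named after its value was seen. Luminal progenitor and secretory markers had a median of -0.72 over 9 of 13 genes, all 9 below 0 and 4 of them lower by 2-fold or more, Wfdc18 (-1.54), Csn3 (-1.31), Aldh1a3 (-1.29) and Lalba (30 counts in Ctrl basal, 2 in CL basal). Their summed counts were 36506 and 19280, led by Aldh1a3 and Mfge8; Csn2, Csn1s2a and Wap were at 0 in both. For Gata3, which T cells and innate lymphoid cells also make, the T lymphocyte and innate lymphoid markers had a median of 0.09 and sums of 1247 and 1212 counts, with Ptprc at 537 and 521, Lck at 207 and 229, and Il1rl1 lower (159 and 66). For Ly6d, the B lymphocyte markers had sums of 659 and 575 counts, led by Ebf1 and Pax5. Squamous epithelium markers had a median of 0.65, with 3 past 2-fold higher, Krt1 (19 counts in Ctrl basal, 367 in CL basal), Krt10 and Calml3, while Sbsn, the most counted, had 1196 and 615. For Esr1, Pgr and Prlr, which stroma can also express, the fibroblast markers had a median of -0.42 and sums of 13959 and 11853 counts, led by Fbn1 and Col3a1, and Lum was lower by 2-fold or more (128 and 34). The adipocyte markers had a median of -0.86 over 4 of 7 genes, with Plin1 lower (30 and 12), and the genes outside those 4 fell under the filter. Their sums of 5033 and 3675 were mostly Fabp4 (4648 and 3465), followed by Pparg, so they stand largely for 1 gene. Endothelial markers had a median of -0.31 and sums of 15340 and 12304, led by Cdh5 and Pecam1. Pecam1 encodes CD31, which the sort left out, yet its level stood at percentile 87.8 in Ctrl basal and 84.5 in CL basal. Macrophage markers had a median of -0.28 over 6 of 10 genes and sums of 699 and 573, led by Cd68 and Lyz2. Neither the endothelial nor the macrophage list had a gene past 2-fold.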

How the data were processed

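RNA-seq counts of 2 libraries of sorted mouse mammary basal cells, 1 Ctrl basal and 1 CL basal, were taken as deposited. The authors aligned the reads to mouse GRCm38 (mm10), per the submitters' processing notes, and deposited raw read counts per gene with gene spans and exonic lengths. The aligner, the counting tool and the strand setting are not given in the sources used here. The labels name an RNeasy kit and a SMARTER kit, while the study's methods name RNAiso Plus, so the extraction is uncertain. The table's 2 columns of the authors' ratio and log2 ratio were not used.

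Counts were scaled by TMM (edgeR 4.0.16, R 4.3.3; factors 0.987 for CL basal and 1.01 for Ctrl basal), and log2 fold changes were computed with a prior count of 2 for the 17356 of 49492 genes whose counts summed to 20 or more. With 1 library per group no model was fitted across replicates. Exact Clopper-Pearson 95% intervals of the CL share of a gene's reads, and exact Poisson intervals of levels, were computed in Python 3.11.15 with scipy 1.17.1. A gene was counted as past a fold at 2 or 1.5. A count of 0 allows up to 3 counts, or 0.078 (CL basal) and 0.0782 (Ctrl basal) per 1000000 reads. The calculation was tested on simulated data drawn as independent Poisson counts. These held no read pairs that add 2 counts, so that effect on the intervals was not tested. The members and lists were chosen with earlier results of these data known. Besides the members, Gm13256 and the keratins of both layers, genes of the hormone lists were named where past 2-fold or among the 5 most counted, and genes of a cell type list where among the 2 most counted or, at most 3 each way, past 2-fold. Of the genes so named, 1 is not reported here. Alternatives were other scalings (DESeq2 1.42.0 size factors included), prior counts and filters, equal depth, halved counts, removal of the trend with level, and values relative to Krt8 and Krt18. The Gata3 value without the counts of Gm13256 was chosen after seeing the data. Gene spans are those of the deposited table, and all but that of Foxa1 were the same in GENCODE M21.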

Additional observations from a re-analysis of the deposited data

How the results depend on the processing

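No paired analysis was possible because 1 library made up each group. Scaling by total counts, which moved the median of all genes by -0.04, raised the hormone sensing genes lower by 2-fold from 1 to 2, by Pgr (-1.0). At 1.5-fold, 5 were lower and 1 was higher. Relative to Krt8 and Krt18, 0 were lower and 2 higher by 2-fold, and the medians became 0.16 for the 9 genes, 0.76 for the hormone pathway, 0.26 for the hormone sensing markers and -0.077 for the luminal markers; this follows from adding the keratins' difference to each value. Of 111 values of the 9 genes and Gm13256 under alternatives, 100 lay within the interval reported, and of the other 11, 10 were relative to Krt8 and Krt18 and the last was Tfap2c with the trend on level removed (0.36). Apart from that scale 0 changed sign. Most alternatives rescaled or refiltered the same counts, so they had little room to leave these intervals. Esr1 fell short of 1.5-fold at equal depth (-0.57) and with the trend removed (-0.55), and Gata3 with total counts (0.557), with the trend removed (0.580) and without the counts of Gm13256 (0.53). Across the alternatives other than the keratin scale, the median of the 9 genes lay between -0.74 and -0.55, and that of the hormone pathway between -0.04 and 0.01, on both sides of 0. With at least 100 counts Cited1 gave no value. Counting error is the one error measured: biological and preparation differences between the libraries cannot be told apart from the treatment.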

Other observations

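Gm16485 lies 3179 bases downstream of Pgr on the same strand. It had 224 counts in Ctrl basal and 122 in CL basal, a log2 fold change of -0.87 (95% counting interval -1.21 to -0.56), beside -0.97 for Pgr. The intervals overlapped. Gm16485 was looked at after the values of Pgr were known, because of its position. Within the prolactin signal, Cish, a target of Stat5 that damps cytokine signals, was at 0.60 (0.44 to 0.77), with 495 counts in Ctrl basal and 753 in CL basal, while Socs2, another such target, had 780 counts in both, Jak2 was at -0.21 and Prlr at -0.86. Cish, Socs2 and Jak2 were singled out after their values were seen.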
